A study of Homo sapiens with 11 samples.

Results

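The IFIT family comprises IFIT1, IFIT2, IFIT3 and IFIT5, the interferon-induced proteins with tetratricopeptide repeats. The 4 genes were taken by symbol, not by value, from 58699 genes measured in total RNA of HCT116 cells, an established human colorectal cancer line. The control siRNA was directed at luciferase (siLuc) and the other at Staufen1 (siStau1), a protein that binds double-stranded RNA, so every group was transfected. Each siRNA was combined with the solvent DMSO or with decitabine (DAC), a drug that lowers DNA methylation, at 500 nM over 5 days. This makes 4 groups, siLuc DMSO, siStau1 DMSO, siLuc DAC and siStau1 DAC, each of 2 libraries of this one line. The labels do not say whether the libraries of a group came from separate cultures. The authors' deposited table holds 1 FPKM value (fragments scaled by transcript length and by sequenced fragments) per gene and group and none per library. The spread between libraries cannot be given, nor can their depth.

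IFIT proteins bind RNA and are among the most strongly interferon-induced proteins of human cells. IFIT1 binds RNA whose cap lacks the ribose methylation that marks the cell's own mRNA and blocks its translation. IFIT2 and IFIT3 assemble with IFIT1 into complexes, in which IFIT3 stabilises IFIT1, and IFIT5 binds RNA that carries a triphosphate at its leading end. Their genes are switched on by transcription factors that interferon receptors activate, and directly by IRF3 after viral RNA is sensed, through a promoter element that repeats TTTC.

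STAU1, the targeted gene, had 35.5 FPKM under siLuc and 30.0 under siStau1 in the DMSO groups, and 33.7 and 27.1 in the DAC groups, and neither knockdown difference was called in the authors' deposited table (q-values 0.767 and 0.685). All statements on siStau1 therefore refer to groups by their label. The word knockdown names the comparison of siStau1 with siLuc, not a shown loss of STAU1 RNA. Of 8 colon epithelial markers, 6 had at least 1 FPKM in every group, and CDX1 was listed at 0 in both DMSO groups. Markers of leukocytes, endothelium and fibroblasts, 9 in all, summed to 1.82 FPKM under siLuc and 1.22 under siStau1 with DMSO, and to 12.9 and 10.2 with DAC. PTPRC, which defines leukocytes, was listed at 0 with DMSO under either siRNA, and with DAC at 0.174 FPKM under siLuc and 0.82 under siStau1. The part of these markers in the IFIT values was not tested. In bulk RNA, fewer responding cells and less RNA per cell cannot be told apart.

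The promoter stretches are shown because the 4 genes are neighbours that are known to answer to the same element. RefSeq promoter windows (GRCh38.p14), from 250 bases before to 50 after a gene start, were matched for 3 of the 4 members, IFIT1, IFIT3 with 2 starts, and IFIT5. They were searched for TTTCNNTTTC, the core of the interferon-stimulated response element, and for the same letters on the other strand, GAAANNGAAA, with overlapping matches allowed. All stretches are on the plus strand, and capitals mark the matches. The last bases of the IFIT5 stretch lie past its RefSeq start.
IFIT1, chr10:89392482-89392545: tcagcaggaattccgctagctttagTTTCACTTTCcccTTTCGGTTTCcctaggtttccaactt
IFIT3, upstream start, chr10:89327816-89327893: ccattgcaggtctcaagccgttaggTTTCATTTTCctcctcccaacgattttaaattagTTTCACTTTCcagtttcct
IFIT3, downstream start, chr10:89332410-89332487: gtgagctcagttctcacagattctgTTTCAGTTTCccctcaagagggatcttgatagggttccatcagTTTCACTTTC
IFIT5, chr10:89414498-89414585: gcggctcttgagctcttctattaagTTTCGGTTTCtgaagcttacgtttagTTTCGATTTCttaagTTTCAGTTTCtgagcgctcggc

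IFIT1 held 2 matches, beginning 39 and 26 bases before its GENCODE start. IFIT3 held 2 that begin 53 and 19 bases before its upstream start and 2 that begin 49 and 6 bases before the downstream one, and IFIT5 held 3, beginning 63, 37 and 22 bases before its start. Of all 35116 promoter windows, 3.57% held at least 1 match, 0.259% at least 2 and 0.037% at least 3. Among 23 other interferon-stimulated effectors with a window, 18 held at least 1, 10 at least 2 and 2 at least 3. The window of IFIT1B, the relative between IFIT3 and IFIT1, held 0. The word TTTCACTTTC occurred before IFIT1 and before both starts of IFIT3, and the matches of IFIT5 were TTTCGGTTTC, which IFIT1 also has, TTTCGATTTC and TTTCAGTTTC. The IFIT5 window also had the most CpG pairs, the sites of DNA methylation, with 16 against 4 in IFIT1 and 5 and 1 in the windows of IFIT3. The median of all windows was 14. Methylation was not measured here, and a match in sequence is not a bound site.

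IFIT1 was the highest member in every group. Errors below are standard errors (SE) on the log2 scale, recovered from the authors' deposited test statistics. They come from the authors' model and are not a spread between libraries. IFIT1 (ENSG00000185745.9, chromosome 10, 89392546 to 89406486, plus strand, GRCh38) stood at 207 FPKM in siLuc DMSO (1 SE range 155 to 277) and at 79.4 in siStau1 DMSO (57.7 to 109). With DAC it stood at 83.6 under siLuc (56.0 to 125) and at 125 under siStau1 (90.6 to 172). Its level was thus highest in siLuc DMSO, and the 1 SE range there overlapped only that of siStau1 DAC. A gap between such ranges is not a test. Against siLuc DMSO, the authors' deposited table (Cuffdiff) called siStau1 DMSO (q-value 0.0393) but not siLuc DAC (0.119) or siStau1 DAC (0.417).

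IFIT2 (ENSG00000119922.9, chromosome 10, 89283694 to 89309276) stood at 37.5 FPKM in siLuc DMSO (22.0 to 63.6) and at 11.1 in siStau1 DMSO (5.62 to 22.1), and with DAC at 53.4 under siLuc (36.6 to 77.9) and at 31.9 under siStau1 (19.8 to 51.3). IFIT3 (ENSG00000119917.13, chromosome 10, 89327894 to 89340971) stood at 41.9 FPKM in siLuc DMSO (22.7 to 77.1) and at 10.3 in siStau1 DMSO (4.19 to 25.2), and with DAC at 66.2 under siLuc (44.3 to 98.8) and at 47.6 under siStau1 (30.2 to 74.8). Both had their highest level in siLuc DAC and their lowest in siStau1 DMSO, and IFIT1 shared the lowest group but not the highest. The ranges of the 3 higher groups overlapped one another in both genes. The range of siStau1 DMSO also overlapped that of siLuc DMSO in both, and that of siStau1 DAC in IFIT2.

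IFIT5 (ENSG00000152778.8, chromosome 10, 89414586 to 89421001) stood at 30.9 FPKM in siLuc DMSO (24.9 to 38.3) and at 26.5 in siStau1 DMSO (21.1 to 33.3), and with DAC at 18.0 under siLuc (14.3 to 22.6) and at 26.6 under siStau1 (21.4 to 33.1). It varied least of the 4, and siLuc DAC was its lowest group. Groups next to each other in the order of levels were not called different in any of the 4 genes. The closest were siStau1 DAC and siStau1 DMSO for IFIT5, with a log2 ratio of 0.0052 ± 0.45 (SE).

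**Figure D1:**
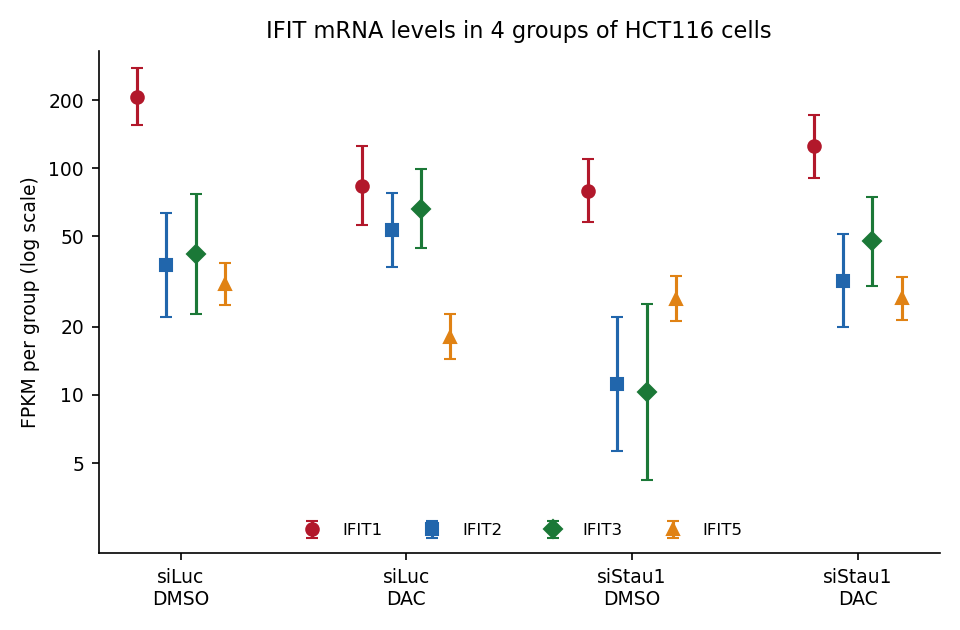
FPKM of the 4 IFIT genes (vertical axis, log scale) in the 4 groups (horizontal axis), 1 value per group of 2 libraries, with bars of 1 SE from the authors' deposited statistics. IFIT1 lies between 79.4 and 207 FPKM, while IFIT2 and IFIT3 are lowest in siStau1 DMSO, at 11.1 and 10.3.

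The errors differed among members. In siStau1 DMSO the SE of the log2 level was 1.29 for IFIT3, 0.99 for IFIT2, 0.46 for IFIT1 and 0.33 for IFIT5. Among 6029 protein-coding genes of 10 to 250 FPKM in that group, 95.9% had a smaller error than IFIT3 and 3.55% a smaller error than IFIT5. IFIT5 had the smallest error of the 4 members in each group.

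Knockdown without decitabine was the only comparison with a called member. IFIT1 fell from 207 to 79.4 FPKM in siStau1 DMSO, 2.61-fold, with a log2 ratio of −1.38 ± 0.62 (SE). The authors' deposited table (Cuffdiff) gives this a p-value of 0.0027 and a q-value of 0.0393. The ratio was 2.21 times its SE, and the p-value is below what a normal distribution gives for that statistic. The q-value therefore does not follow from the SE alone. IFIT3 had the larger ratio, −2.01 ± 1.57, and IFIT2 had −1.74 ± 1.25, but neither was called, with q-values of 0.386 and 0.344. IFIT5, at −0.22 ± 0.45, or 0.0031 when scaled to the sum over all genes, had a q-value of 0.798. Thus 1 of 4 members was called, against 0.799% of the 15893 genes tested, and 1 of 4 had an unadjusted p under 0.05, against 4.3%. The call on IFIT1 rests on the authors' adjustment over all 6 comparisons, since its value adjusted within this comparison was 0.387. Adjusted that way 0.208% of genes were called, and with a q-value limit of 0.01 0.346%, and neither holds a member. The median log2 ratio of the 4 members was −1.56, beside −0.02 over all tested genes.

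In control cells the decitabine ratios of IFIT1 and IFIT5 were below 0 and those of IFIT2 and IFIT3 above 0. None was called, and IFIT2 and IFIT3 lay within 1 SE of 0. Centred within bins of GC content, IFIT5 was at −0.03. IFIT1 went from 207 to 83.6 FPKM, a log2 ratio of −1.31 ± 0.72 (SE; q-value 0.119), and IFIT5 from 30.9 to 18.0, a ratio of −0.78 ± 0.45 (0.138). IFIT2 had a ratio of 0.51 ± 0.94 (q-value 0.756) and IFIT3 of 0.66 ± 1.05 (0.72), with both turning to −0.16 and −0.0080 when FPKM was scaled to the sum over all genes. Scaled to the sum over protein-coding genes IFIT2 and IFIT3 were at 0.50 and 0.65. In the authors' deposited table (Cuffdiff) 0 of 4 members were called, against 13.5% of the 17504 genes tested, and 2 of 4, IFIT1 and IFIT5, had an unadjusted p under 0.05, against 28.9% of genes. The median of the 4 log2 ratios was −0.13 and of all tested genes 0.23, and the family median turned to 0.48 when centred within bins of GC content and was −0.80 when scaled to the sum over all genes.

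In siStau1 cells no member's deposited FPKM was lower with decitabine. IFIT3 went from 10.3 to 47.6 FPKM, a log2 ratio of 2.2 ± 1.45 (SE), and IFIT2 from 11.1 to 31.9, a ratio of 1.51 ± 1.20. IFIT1 had a ratio of 0.65 ± 0.65, and IFIT5 of 0.0052 ± 0.45, which were 0.027 and −0.62 when scaled to the sum over all genes. Scaled to the sum over protein-coding genes IFIT1 and IFIT5 were at 0.70 and 0.057. Centred on the median of all genes, IFIT5 was at −0.016. The q-values in the authors' deposited table (Cuffdiff) lay between 0.295 and 0.995, so 0 of 4 members were called, against 7.46% of the 16979 genes tested, and 0 had an unadjusted p under 0.05, against 19% of genes. The median of the 4 ratios was 1.08, beside 0.11 over all tested genes.

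Under decitabine the knockdown ratios of the 4 members lay on both sides of 0, and none was called. IFIT2 and IFIT3 were at −0.74 ± 0.88 and −0.48 ± 0.87 (SE), while IFIT1 and IFIT5 were at 0.58 ± 0.74 and 0.56 ± 0.46. In the authors' deposited table (Cuffdiff; q-values 0.368 to 0.772) 0 of 4 were called, against 0.904% of the 17263 genes tested, and 0 had an unadjusted p under 0.05, against 6.95% of genes. The median was 0.04, beside −0.14 over all tested genes.

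The other two comparisons change siRNA and drug together. Between siStau1 DAC and siLuc DMSO the log2 ratios ran from −0.73 ± 0.62 (SE) for IFIT1 to 0.18 ± 1.10 for IFIT3. Between siLuc DAC and siStau1 DMSO they were 2.67 ± 1.42 for IFIT3, 2.25 ± 1.13 for IFIT2, 0.07 ± 0.74 for IFIT1 and −0.56 ± 0.46 for IFIT5. In both, 0 of 4 members were called in the authors' deposited table (Cuffdiff), against 4.98% and 16.7% of the genes tested. An unadjusted p under 0.05 was seen for 0 of 4 in the former (13.6% of genes) and for 2 of 4, IFIT2 and IFIT3, in the latter (33.1% of genes).

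**Figure D2:**
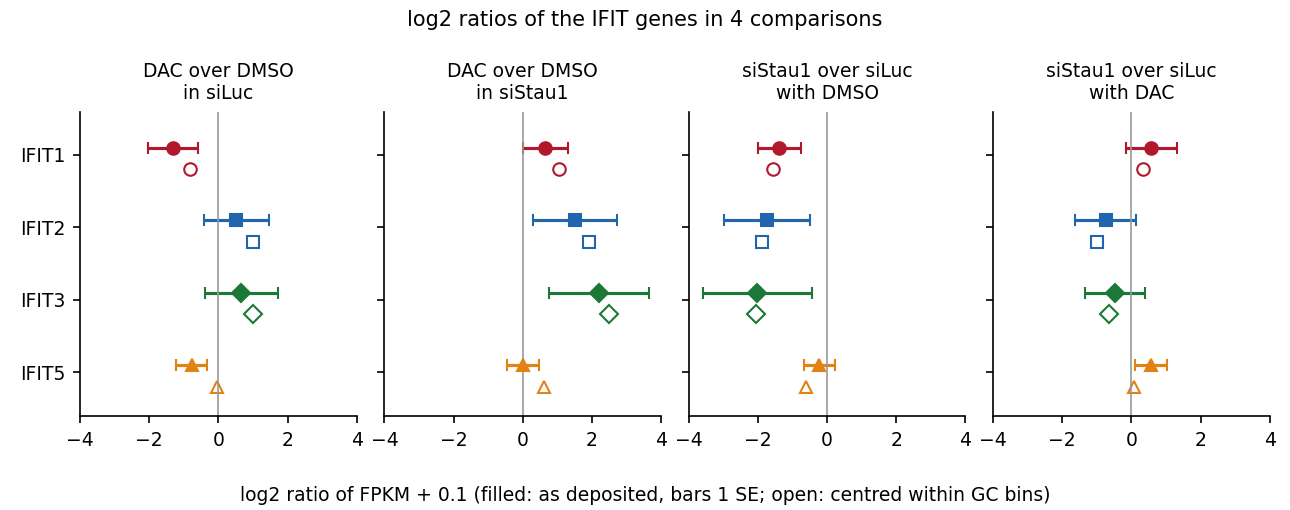
Log2 ratios of FPKM + 0.1 (horizontal axis) of the 4 IFIT genes (rows) in 4 comparisons (panels), filled with bars of 1 SE as deposited, and open after centring on the median of genes of like GC content. IFIT1 with siStau1 and DMSO, at −1.38, is the only called value, and IFIT5 with DAC in siLuc moves from −0.78 to −0.03 on centring.

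Ratios in this series follow the GC content of transcripts. In the lowest of 20 GC bins the median log2 ratio with DAC in siLuc was −0.95, and in the highest it was 1.20. The longest transcript of IFIT5 had 37.4% GC and lay in bin 2, that of IFIT1 had 42.2% and that of IFIT2 42.8%, both in bin 6 for that comparison, and that of IFIT3 had 44.3%, in bin 8. Centred within bins, the DAC ratio in siLuc was −0.81 for IFIT1, 1.01 for IFIT2, 0.99 for IFIT3 and −0.03 for IFIT5. In siStau1 the centred values were 1.06, 1.92, 2.51 and 0.62 in that order. For knockdown with DMSO they were −1.58, −1.87, −2.06 and −0.61, each further from 0 than before centring. For knockdown under DAC they were 0.33, −0.99, −0.64 and 0.076, with a family median of −0.28 in place of 0.04. IFIT1 and IFIT2 share a bin, so their difference with DAC in siLuc is the same before and after centring.

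The make-up of IFIT mRNA moved with these ratios. Of the summed FPKM of the 4 genes, 317 in siLuc DMSO and 221 in siLuc DAC, IFIT1 held 65.3% and 37.8%. In siStau1 the sums were 127 with DMSO and 231 with DAC, and IFIT1 held 62.4% and 54.1%. IFIT3 held 13.2% and 29.9% in siLuc, without and with DAC, and 8.07% and 20.6% in siStau1. IFIT2 held 11.8% and 24.1% in siLuc and 8.75% and 13.8% in siStau1. IFIT5 held 9.74% and 8.15% in siLuc and 20.8% and 11.5% in siStau1. The level of IFIT3 over that of IFIT2 stayed between 0.923 and 1.49, while that of IFIT1 over IFIT3 was 4.95 without and 1.26 with DAC in siLuc, and 7.72 without and 2.62 with DAC in siStau1. Such ratios within a group do not depend on how groups were scaled. Their changes between groups do move with GC centring where members lie in different bins. With DAC in siLuc the log2 change of IFIT5 over IFIT3 went from −1.43 to −1.03. That of IFIT1 over IFIT3 went from −1.97 to −1.80.

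With DAC the IFIT1 ratio lay 1.97 below that of IFIT3 on the log2 scale in siLuc (SE 1.27) and 1.55 below it in siStau1 (SE 1.59), taking the errors of both genes as independent, which was not tested. IFIT1 lay 1.82 below IFIT2 in siLuc (SE 1.18) and 0.86 below it in siStau1 (SE 1.37). These differences were 1.5 times their SE in siLuc and at most 1.0 times in siStau1. They have no test, because the table holds no value per library.

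**Figure D3:**
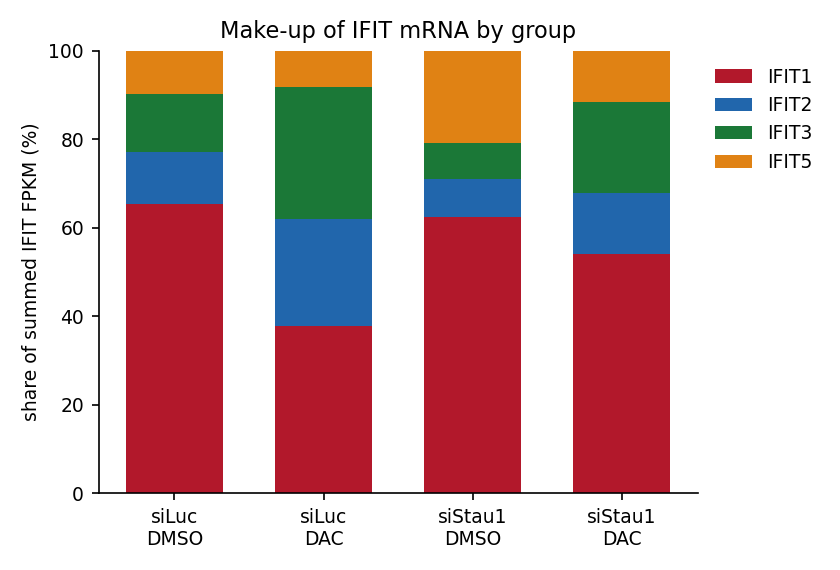
Share of the summed FPKM of the 4 IFIT genes (vertical axis, percent) held by each in the 4 groups. IFIT1 holds 65.3% in siLuc DMSO and 37.8% in siLuc DAC.

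Subtracting the DAC log2 ratio of siLuc from that of siStau1 gave values above 0 for all 4 genes, at 1.96 ± 0.97 (SE) for IFIT1, 1.54 ± 1.79 for IFIT3, 1.00 ± 1.53 for IFIT2 and 0.78 ± 0.64 for IFIT5. Only for IFIT1 did the size reach 2.0 times its SE, and the difference could not be tested. The siStau1 DMSO group enters this difference and also the knockdown ratio, so these are not separate observations. The IFIT1 levels of both DAC groups, 83.6 and 125 FPKM, were not called different.

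The 4 genes lie within 137308 bases of chromosome 10, all on the plus strand. LIPA, the lysosomal acid lipase gene on the minus strand, spans IFIT2, IFIT3 and IFIT1, and its annotated start lies 29 bases from that of IFIT5. Exons on opposite strands overlapped in 65 bases of IFIT2 (1.58% of its exon bases) and in 0 bases of the other members. Another 356 exon bases of IFIT2 are shared with the non-coding gene AL353751.1 on the same strand, which had at most 0.122 FPKM. The kit is stranded per the labels, but whether strand was used in counting is not given in the sources used here.

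LIPA had 31.1 FPKM under siLuc and 30.7 under siStau1 with DMSO, and 12.3 and 17.3 with DAC, and it was not called in any comparison. Its knockdown ratio with DMSO was −0.02, where the 3 IFIT genes inside its span had −1.38 to −2.01. With DAC in siLuc its ratio of −1.33 ± 2.1 (SE) stood beside −1.31 ± 0.72 for IFIT1. Of the other neighbours, CH25H, a cholesterol hydroxylase that interferon also induces, and SLC16A12 stayed at or below 0.167 and 0.0737 FPKM. FAS, a death receptor, had 6.82 to 14.1 FPKM, PANK1, a pantothenate kinase, 2.41 to 4.44, and KIF20B, a mitotic kinesin, 6.37 to 25.6, none of them called. The relatives IFIT1B and the pseudogenes IFIT1P1 and IFIT6P had at most 0.239 FPKM in any group and were not tested.

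**Figure D4:**
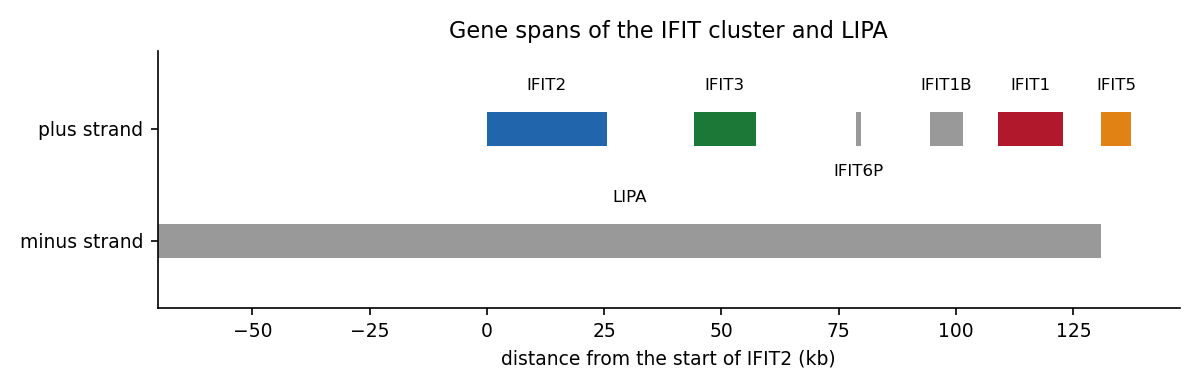
Spans of the IFIT genes, their relatives and LIPA on the 2 strands (rows), by distance from the start of IFIT2 in kb (horizontal axis). The span of LIPA, over its 8 annotated transcripts, covers IFIT2, IFIT3 and IFIT1 on the other strand. Its annotated start lies next to that of IFIT5.

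Genes with the most similar pattern over the 4 groups were sought among 12606 other protein-coding genes, by the root mean square difference of centred log2 levels. For IFIT3 they were USP18, which removes ISG15 and damps interferon signalling (0.06), APOL6, an interferon-induced apolipoprotein L (0.13), and OAS3, which makes the second messenger that activates RNase L (0.15). USP18 had 28.3 FPKM without and 48.4 with DAC in siLuc, and 6.78 and 31.4 in siStau1. For IFIT2 they were TAP2, the peptide transporter of antigen presentation (0.05), PRICKLE1 (0.05) and the histone gene HIST2H2AA3 (0.06), whose near-identical copy makes its value uncertain. TAP2 had 47.6 FPKM without and 73.9 with DAC in siLuc, and 14.5 and 42.6 in siStau1.

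The nearest patterns to IFIT1 and IFIT5 were of other genes. For IFIT1 they were EMP1, an epithelial membrane protein (0.05), AC034102.2 (0.10) and SLIT2, an axon guidance ligand (0.12), and EMP1 had 13.7 FPKM without and 5.52 with DAC in siLuc, and 5.61 and 8.09 in siStau1. For IFIT5 they were POMP, a proteasome assembly chaperone (0.02), SFXN4 (0.02) and TXNDC15 (0.03). Some interferon-stimulated effectors, picked after their values were seen, also followed IFIT1. IFI44, PLSCR1 and DDX60 had their levels in the same order over the 4 groups as IFIT1. IFI44 had 46.1 FPKM without and 18.9 with DAC in siLuc, and 13.7 and 26.1 in siStau1. Of 26 interferon-stimulated effectors, 20 had a ratio above 0 with DAC in siLuc, unlike IFIT1. IFIT2 stood at a distance of 0.25 from IFIT3, 0.82 from IFIT1 and 0.99 from IFIT5. Over 4 values many genes have like patterns: 27 other genes were nearer to IFIT3 than IFIT2 was. These distances are descriptions.

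Among 26 other interferon-stimulated effectors, the authors' deposited table called 12 higher and 1 lower with DAC in siLuc, against 8.71% and 4.78% of genes tested. With DAC in siStau1 it called 16 higher and 0 lower, against 4.56% and 2.89%. The knockdown calls were 18 lower and 0 higher with DMSO (0.466% and 0.333% of genes tested), and 9 lower and 1 higher with DAC (0.469% and 0.434%). Their median log2 ratios were 1.15, 2.62, −2.16 and −0.78 in that order, and scaled to the sum over all genes 0.49, 2.0, −1.94 and −0.52. The IFIT medians beside them were −0.13, 1.08, −1.56 and 0.04, and scaled to that sum −0.80, 0.46, −1.34 and 0.31. Centred within GC bins, the effector medians were 0.75, 2.11, −2.07 and −0.63, and the IFIT medians 0.48, 1.49, −1.72 and −0.28.

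MX1, a GTPase that blocks viruses, rose from 3.74 to 266 FPKM with DAC in siLuc, and MX2 from 2.93 to 19.8. OAS2 stood in siLuc at 1.61 FPKM without DAC (1 SE range 0.131 to 19.7) and at 15.8 with it (5.44 to 45.9), so the ranges overlapped. IFITM1, a membrane protein that hinders viral entry, fell from 191 to 8.80 FPKM with knockdown in DMSO. The effector called lower with DAC in siLuc was SAMD9 (chosen after its values were seen), from 31.0 to 11.4 FPKM, and it was the 1 called higher with knockdown under DAC. In all, 6 of the 26 effectors had a ratio below 0 with DAC in siLuc, among them IFI44, PLSCR1 and DDX60, and 20 had one above 0. The TTTCNNTTTC word was in a promoter window of 18 of 23 effectors with an entry, against 4.38% of all genes with one.

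**Figure D5:**
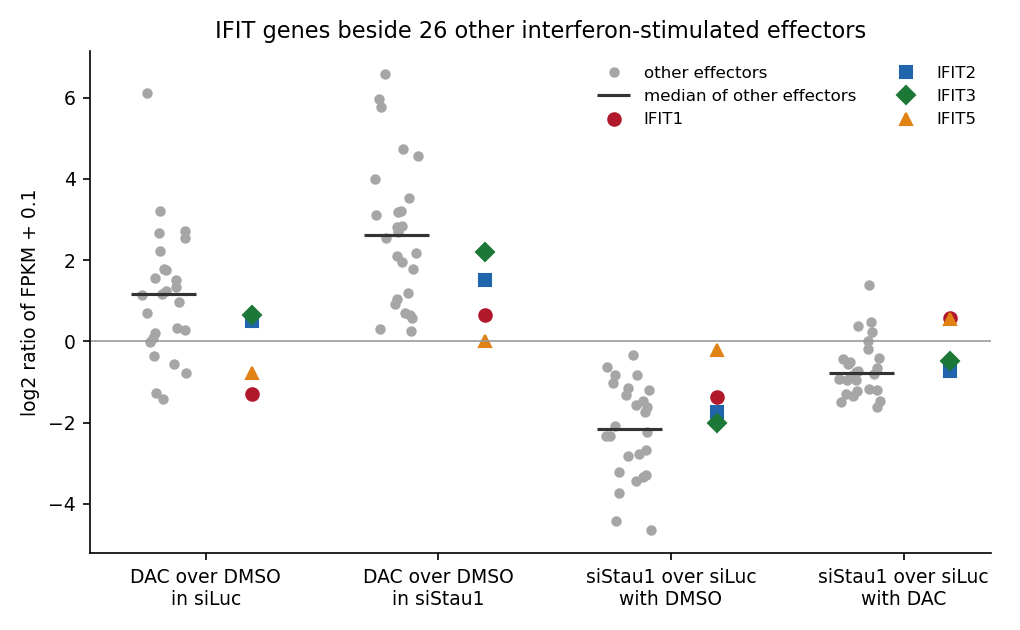
Log2 ratios of FPKM + 0.1 (vertical axis) of 26 other interferon-stimulated effectors (grey points, bar at the median) and of the 4 IFIT genes (coloured) in 4 comparisons. With DAC in siLuc the effector median is 1.15 with 6 of 26 below 0, and IFIT1 and IFIT5 are at −1.31 and −0.78.

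Of 15 regulators of IFIT transcription, 3 were called higher with DAC in siLuc and 3 in siStau1 in the authors' deposited table, 0 lower in either, against 8.71% and 4.56% of genes tested called higher. IRF7, which amplifies interferon production, rose in siLuc from 11.8 to 78.5 FPKM, and in siStau1 from 6.11 to 32.9. STAT2, a transcription factor of the interferon response, rose in siLuc from 22.6 to 52.8 FPKM, and in siStau1 from 13.3 to 32.2. IRF3 rose in siLuc, from 18.8 to 65.3 FPKM, and USP18 in siStau1, from 6.78 to 31.4. With knockdown 1 was called lower in DMSO, USP18, and 1 under DAC, IRF7, against 0.466% and 0.469% of genes tested. The DAC log2 ratios of IRF7, STAT2 and IRF3 in siLuc were 2.72, 1.22 and 1.79. Centred within GC bins they were 1.52, 1.06 and 1.00. The calls in this list and in those below are on values not centred for GC.

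Of 14 genes of RNA sensing and the MAVS arm, 2 were called higher with DAC in siLuc, DHX58 and ZNFX1, and 3 in siStau1, ZNFX1, DDX58 and IFIH1, with 0 lower in either. These counts stand against the same 8.71% and 4.56% of genes tested. DDX58, which encodes the RNA sensor RIG-I, had 41.5 FPKM without and 51.7 with DAC in siLuc, and 20.2 and 53.5 in siStau1, and it was the 1 gene of this list called lower with knockdown in DMSO (0.466% of genes tested). No gene of it was called with knockdown under DAC. Of 12 genes acting at the RNA cap or binding IFIT proteins, 2 were called lower with DAC in siLuc and 1 in siStau1, where 1 was called higher, and 0 were called with knockdown. Of all genes tested 4.78% were called lower in siLuc, and in siStau1 2.89% were called lower and 4.56% higher. EIF3E, a subunit of the initiation factor that IFIT proteins bind, fell in siLuc from 359 to 106 FPKM, and in siStau1 from 631 to 197. DUSP11, which removes phosphates from RNA ends, fell from 23.4 to 9.51 FPKM in siLuc (q-value 0.0498), and EIF3C rose from 2.06 to 5.04 in siStau1. The DAC log2 ratios of EIF3E and DUSP11 in siLuc were −1.75 and −1.29, and centred within GC bins −1.01 and −0.79.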

How the data were processed

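Per the submitters' processing notes, HISAT2 2.1.0, Cuffdiff 2.2.1 and the build hg38 were used. Which role each had for this table is not stated there. The authors deposited FPKM values in the Cuffdiff layout, 1 per group, with a test statistic (score), a p-value and a q-value for each of 6 comparisons, per the file headers. Tables of double-stranded RNA on repeat elements name no gene and were not used. All 58699 identifiers are in GENCODE 29, which gave positions and transcript GC. The deposited q-value was recomputed as a Benjamini-Hochberg value over 102180 tests, with a largest gap of 5.3e-07. A call is a q-value under 0.05. In 97.4% of tests the authors' p-value was below the normal p of their own statistic, so their p-values do not follow from the statistic alone.

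Log2 ratios used FPKM with a pseudocount of 0.1, which understates changes of low genes. The SE of a ratio is the log2 ratio without pseudocount divided by the deposited statistic. Its square was split into 1 part per group by least squares, and the parts added up to within 1% for 99.9% of 14168 genes. One gene outside the family had differing repeats of its value. The planned edgeR and DESeq2 fits need counts per library and could not be fitted. Functions were tested on simulated data. Named genes are the members, relatives, neighbours, the 3 nearest patterns per member and up to 4 called genes per list with the largest ratio. Members and lists were chosen with earlier results of these data known. Alternatives were other pseudocounts, limits, adjustments and scalings. Python 3.11.15 with pandas 2.3.3 was used.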

Additional observations from a re-analysis of the deposited data

Results flagged for a closer look

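IFIT1 was singled out because its value with decitabine went in opposite directions under the 2 siRNAs: the log2 ratio was −1.31 in siLuc and 0.65 in siStau1, a difference of 1.96 ± 0.97 (SE). These are group values with no value per library, so it is unknown whether every library moved that way, and the difference was not tested. Centred within GC bins the ratios were −0.81 and 1.06, and scaled to the sum over all genes they were −1.98 and 0.027, the latter close to 0. Scaled to the sum over protein-coding genes they were −1.32 and 0.70.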

How the results depend on the processing

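No paired analysis was possible because the table holds 1 value per group and none per library. For the same reason fits that leave out a library, edgeR and DESeq2 were not run. With a q-value limit of 0.01, or adjusted within the comparison, 0 members were called with knockdown in DMSO in place of 1. Between groups the FPKM sums over protein-coding genes differ by log2 ratios of 0.011 and −0.052 with DAC in siLuc and siStau1. With knockdown they differ by −0.080 in DMSO and −0.14 under DAC. The sums of FPKM over all genes differ between groups by a log2 ratio of 0.67 (DAC in siLuc), 0.62 (DAC in siStau1), −0.22 (knockdown in DMSO) and −0.27 (knockdown under DAC). Scaled to these sums, a choice made after seeing the data, IFIT1, IFIT2, IFIT3 and IFIT5 had log2 ratios of −1.98, −0.16, −0.0080 and −1.44 with DAC in siLuc and 0.027, 0.89, 1.57 and −0.62 in siStau1, and IFIT5 had 0.0031 with knockdown in DMSO. Scaled to the sums over protein-coding genes, centred on the median, or with a pseudocount of 1 or 0.01, 20 of 20 ratios and differences stayed within 1.5-fold, and IFIT5 with DAC in siStau1, at 0.0052, turned to −0.016 when centred on the median. Centring within GC bins moved IFIT5 to −0.033 and 0.62 with DAC. The family median with DAC in siLuc was 0.51 without IFIT1 or IFIT5 and −0.78 without IFIT2 or IFIT3, and with knockdown under DAC −0.48 without IFIT1 or IFIT5. Depth is unknown, so no limit from it can be given.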
